A study of Homo sapiens with 14 samples.

Results

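This account covers 10 human genes of NF-kB signalling and innate defence: LCN2, SERPINA3, LY96, C3, BIRC3, NFKBIA, TNFAIP3, NFKB1, NFKB2 and RELB. They were measured by Affymetrix expression arrays in PANC-1 cells, a long-established line from a human pancreatic carcinoma. A gene was taken when an array probe set was assigned to it and to no other gene, and where several were, the brightest of them by its mean over the 14 arrays stood for the gene. 9 of the 10 genes were measured in this way, of 18129 such genes in all, and BIRC3 was not analysed here. All 9 lay above the brightness limit of 6.89 log2 units for the mean over all arrays, as did 10877 genes, over which every test was run.

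The arrays came from 4 groups, all kept in 1% serum for 24 h and then treated for 48 h. 3 samples had TGFb1 at 5 ng/ml with sodium valproate at 2 mM, 3 had TGFb1 at 5 ng/ml with acriflavine at 2.5 µM, 4 had TGFb1 at 5 ng/ml alone, and 4 were controls without TGFb1. TGFb1 is a cytokine known to drive epithelial cells towards a mesenchymal state, valproate inhibits histone deacetylases, and acriflavine is a mixture of acridine dyes. The labels call the samples biological replicates of 1 cell line, and neither inhibitor was given without TGFb1 in the samples used here.

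NF-kB is a family of dimeric transcription factors that inhibitor proteins hold in the cytoplasm until cytokine or microbial receptors trigger the inhibitors' destruction. NFKB1 encodes p105, the precursor of the p50 subunit, NFKB2 encodes p100, the precursor of p52, and RELB encodes a subunit that pairs with p52 in the slower, non-canonical branch. NFKBIA encodes IkB-alpha, the inhibitor bound to the canonical dimers, and TNFAIP3 encodes A20, a ubiquitin-editing enzyme that shuts the upstream signal down, and both genes are themselves induced by NF-kB. Of the secreted defence proteins, LCN2 is lipocalin 2, which captures bacterial siderophores, SERPINA3 is alpha-1-antichymotrypsin, an acute-phase inhibitor of neutrophil cathepsin G, and C3 is the central complement component. LY96 is MD-2, the secreted partner that lets the receptor TLR4 sense endotoxin.

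The promoter sequences of RefSeq (build GRCh38.p14) held 7 of the 10 genes, and C3, LY96 and RELB had no entry. The 250 bases upstream of each start were searched on both strands for the 10-base NF-kB consensus (the kappaB site), which 9.96% of 35114 such windows of all genes hold. A match was present in LCN2, NFKBIA, TNFAIP3, BIRC3, 1 of 2 entries of NFKB1 and 2 of 3 entries of NFKB2, and not in SERPINA3. 5 windows are shown 5′ to 3′ on the strand of the gene, with matches in capitals, because these genes carry the results below: LCN2 fell most with TGFb1, NFKBIA and TNFAIP3 are the feedback inhibitors, NFKB1 fell with acriflavine, and SERPINA3 rose most with it. A match is a description of the sequence only.
LCN2, chr9:128149203-128149452, plus strand: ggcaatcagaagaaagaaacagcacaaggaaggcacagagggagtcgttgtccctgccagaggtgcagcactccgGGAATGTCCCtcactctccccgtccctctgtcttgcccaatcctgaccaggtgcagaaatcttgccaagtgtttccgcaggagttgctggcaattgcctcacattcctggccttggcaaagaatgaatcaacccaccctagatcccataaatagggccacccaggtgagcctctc
NFKBIA, chr14:35404750-35404999, minus strand: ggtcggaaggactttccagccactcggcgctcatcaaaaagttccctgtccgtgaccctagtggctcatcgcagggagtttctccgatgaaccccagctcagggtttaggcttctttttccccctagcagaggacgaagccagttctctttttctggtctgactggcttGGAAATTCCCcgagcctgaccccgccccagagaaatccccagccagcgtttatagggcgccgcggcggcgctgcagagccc
TNFAIP3, chr6:137867009-137867258, plus strand: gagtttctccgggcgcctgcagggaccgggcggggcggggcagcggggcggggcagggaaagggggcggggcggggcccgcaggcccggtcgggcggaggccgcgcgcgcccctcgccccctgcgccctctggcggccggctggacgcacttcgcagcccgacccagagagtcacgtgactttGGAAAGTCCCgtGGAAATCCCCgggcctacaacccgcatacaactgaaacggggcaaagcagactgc
NFKB1, chr4:102501109-102501358, plus strand: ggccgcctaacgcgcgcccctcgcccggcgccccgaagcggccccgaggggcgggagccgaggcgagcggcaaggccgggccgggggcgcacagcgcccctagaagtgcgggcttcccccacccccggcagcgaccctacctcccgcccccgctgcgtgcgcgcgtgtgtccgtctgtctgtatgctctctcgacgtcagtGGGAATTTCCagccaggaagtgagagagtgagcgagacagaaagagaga
SERPINA3, chr14:94612141-94612390, plus strand: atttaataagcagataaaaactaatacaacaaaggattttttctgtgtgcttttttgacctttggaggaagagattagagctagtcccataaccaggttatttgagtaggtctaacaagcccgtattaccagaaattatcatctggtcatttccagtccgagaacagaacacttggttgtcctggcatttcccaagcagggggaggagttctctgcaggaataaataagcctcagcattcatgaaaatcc
The LCN2 match lay 175 to 166 bases before the start, that of NFKBIA 81 to 72 bases before it and that of NFKB1 49 to 40 bases before it. TNFAIP3 had a pair of matches, 67 to 58 and 55 to 46 bases before the start. The SERPINA3 window holds no run of letters that fits the consensus.

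Values are log2 intensities, and a difference of 1 is a 2-fold change. Differences are group means subtracted, with the standard error (SE) of a limma fit over all 14 arrays, and a gene rose or fell where its Benjamini-Hochberg adjusted p over 10877 genes was under 0.05. Intensities are comparable between samples for 1 gene, not between genes. The number of arrays limits the precision. Replicate 4 of the TGFb1 group and replicate 4 of the control group, which have no counterpart in the inhibitor groups, stood apart. Over all tested genes the standard deviation (SD) of their deviation from the group mean was 0.375 and 0.250. The SD of TGFb1 replicate 2 was 0.256, against 0.0665 to 0.160 for the other arrays. Results that rest on the replicates 4 are given with and without them. All 6 epithelial markers looked at lay above the brightness limit, and their mean ranged from 10.8 to 11.1 in valproate arrays, 11.7 to 11.8 in acriflavine arrays, 10.5 to 10.7 in TGFb1 arrays and 11.4 to 11.9 in control arrays. With TGFb1 against control 5 of the 6 fell, and with acriflavine against TGFb1 5 rose, beside 9.97% and 24.5% of all genes. With valproate against TGFb1 KRT7 and EPCAM rose, beside 15.1% of all genes, and the other 4 did not pass. The part of these markers in the results below was not tested. 3 of 8 leukocyte markers lay above the brightness limit, while PTPRC, which defines leukocytes, lay between 3.73 and 3.83 in the 4 group means. The mean of the 8 ranged from 6.55 to 6.58 in valproate arrays, 6.43 to 6.46 in acriflavine arrays, 6.45 to 6.57 in TGFb1 arrays and 6.48 to 6.62 in control arrays. Of the 3 above the limit, LAPTM5 rose by 0.87 with TGFb1 against control and fell by 1.05 with acriflavine against TGFb1. CD68 fell by 0.76 with acriflavine and rose by 0.45 with valproate against TGFb1, and TYROBP passed in none of these 3 comparisons. Their part in the results was not tested. Of the hepatocyte markers 2 of 7 lay above the limit, and albumin (ALB) had group means of 4.73 to 4.95. Of 4 endothelial markers only ESAM lay above the limit, and the mean of the 4 was 6.79 to 6.90 in valproate, 6.45 to 6.57 in acriflavine, 6.45 to 6.83 in TGFb1 and 6.10 to 6.42 in control arrays. ESAM rose by 1.73 with TGFb1 against control and by 1.01 with valproate against TGFb1. With acriflavine against TGFb1 it was at -0.63 and did not pass. The part of ESAM in the results was not tested.

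**Figure D1:**
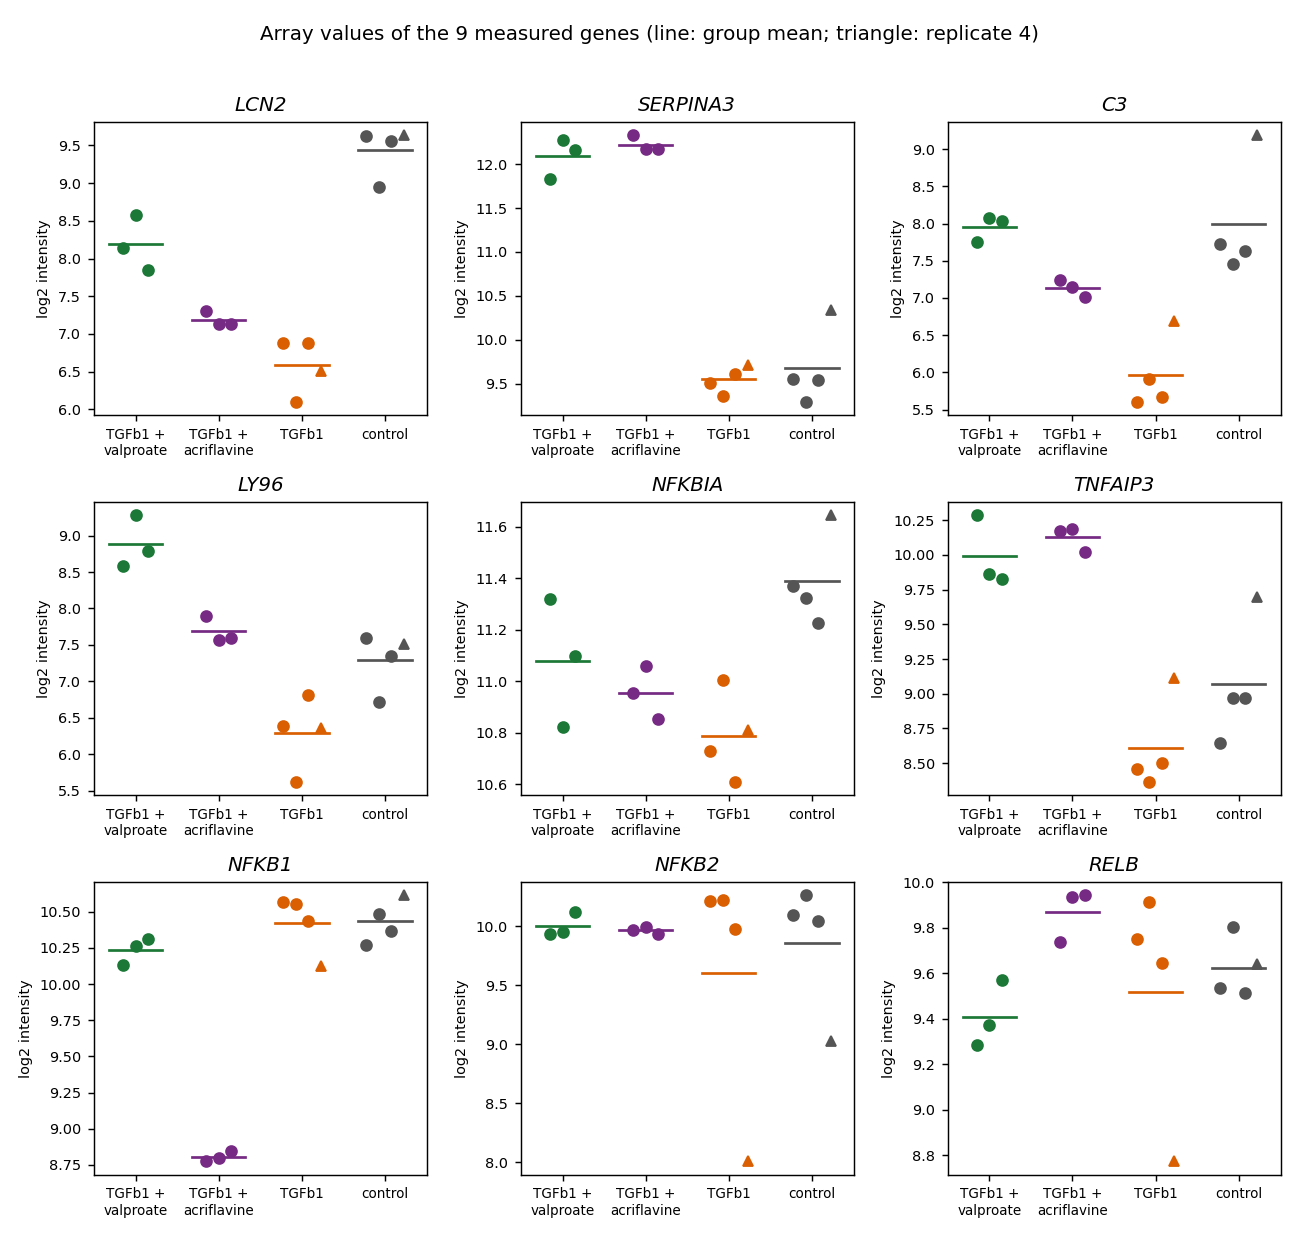
Log2 intensity (vertical axis, a separate scale for each gene) of the 9 measured genes in each array of the 4 groups; lines are group means and triangles mark replicate 4. SERPINA3 and TNFAIP3 are high in every inhibitor array, NFKB1 is low in the 3 acriflavine arrays alone, and NFKB2 is low in both replicates 4.

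TGFb1 alone was set against control to show where these genes stood with TGFb1 and no inhibitor. LCN2, C3, LY96 and NFKBIA fell, and none of the 9 genes rose. Of all genes tested 18.4% passed in this comparison, 9.97% lower and 8.39% higher, beside 4 and 0 of the 9 genes. The median difference was -0.46 for the 9 genes and 0.00 for all genes. 3 of the 9 genes had no overlap between the groups, as had 18% of all genes. Neither of the NF-kB precursor genes nor RELB passed the test. In bulk samples such as these, fewer cells expressing a gene and less RNA per cell cannot be told apart.

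LCN2 read 6.88, 6.10, 6.88 and 6.51 in TGFb1 arrays, against 9.62, 8.95, 9.56 and 9.63 in control arrays. The groups lay far apart, and LCN2 fell by 2.85 ± 0.202 (SE), which is 7.21-fold lower (adjusted p = 4.5e-07, limma). C3 read 5.60, 5.91, 5.66 and 6.68 in TGFb1 arrays, against 7.72, 7.46, 7.63 and 9.19 in control arrays. In both groups replicate 4 was the highest array, and the groups did not overlap. C3 fell by 2.04 ± 0.322, or 4.10-fold (adjusted p = 0.000549, limma). LY96 read 6.39, 5.62, 6.81 and 6.36 in TGFb1 arrays, against 7.60, 6.72, 7.35 and 7.51 in control arrays. TGFb1 replicate 3 lay above control replicate 2, so the groups overlapped, and LY96 fell by 1.00 ± 0.243 (adjusted p = 0.0110, limma). The TGFb1 means of LCN2, C3 and LY96 (6.59, 5.97 and 6.29) all lay below the brightness limit that was set on the mean over all arrays.

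SERPINA3, the other secreted defence gene, read 9.51, 9.36, 9.60 and 9.72 in TGFb1 arrays and 9.55, 9.29, 9.54 and 10.33 in control arrays. These overlapped, and the difference was -0.13 ± 0.180 (95% interval -0.52 to 0.26, adjusted p = 0.668, limma).

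NFKBIA read 10.73, 11.01, 10.61 and 10.81 in TGFb1 arrays, against 11.37, 11.32, 11.23 and 11.65 in control arrays. Every TGFb1 array lay below every control array, and NFKBIA fell by 0.60 ± 0.122, or 1.52-fold (adjusted p = 0.00340, limma). The probe set that was kept is of the _x_at kind, which may bind transcripts of related genes. Its other 2 probe sets were at -0.64, also of the _x_at kind, and at -0.63, of the _a_at kind. Only the last shows that the value did not depend on the _x_at kind. TNFAIP3 read 8.46, 8.37, 8.50 and 9.11 in TGFb1 arrays and 8.65, 8.97, 8.97 and 9.70 in control arrays. Replicate 4 was the highest array of both groups, and the difference of -0.46 ± 0.206 did not pass (adjusted p = 0.143, limma). With the replicate number as a block TNFAIP3 passed at the same difference (adjusted p = 0.00915, limma), without TGFb1 replicate 4 it passed at -0.63 (adjusted p = 0.0231, limma), and its second probe set passed at -0.37 (adjusted p = 0.0306, limma, over all probe sets).

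None of the 3 subunit genes passed. NFKB2 read 10.22, 10.23, 9.98 and 8.01 in TGFb1 arrays and 10.10, 10.27, 10.04 and 9.03 in control arrays. Replicate 4 was the lowest array of each group by about 1 log2 unit or more, and the 3 other arrays of both groups overlapped. The difference was -0.25 ± 0.406 over all arrays (adjusted p = 0.722, limma) and 0.00 ± 0.0870 without the replicates 4 (adjusted p = 0.972, limma). RELB read 9.75, 9.91, 9.65 and 8.77 in TGFb1 arrays and 9.54, 9.80, 9.51 and 9.64 in control arrays, a difference of -0.10 ± 0.190 (adjusted p = 0.761, limma), or 0.15 without the replicates 4. NFKB1 read 10.56, 10.56, 10.44 and 10.12 in TGFb1 arrays and 10.27, 10.48, 10.37 and 10.62 in control arrays. These overlapped, with a difference of -0.01 ± 0.103 (95% interval -0.24 to 0.21, adjusted p = 0.947, limma).

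Taken over replicates 1 to 3 and then in replicate 4 by itself, the TGFb1 minus control difference was -2.76 and -3.13 for LCN2, -1.88 and -2.50 for C3, -0.95 and -1.15 for LY96 and -0.52 and -0.83 for NFKBIA. It was -0.42 and -0.58 for TNFAIP3. The 5 genes kept their direction in both. For SERPINA3 it was 0.03 and -0.62, for NFKB1 0.15 and -0.49, for NFKB2 0.00 and -1.02 and for RELB 0.15 and -0.87, so for these 4 the mean over replicates 1 to 3 was not lower with TGFb1, while the single pair of replicates 4, in which no spread can be measured, was.

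**Figure D2:**
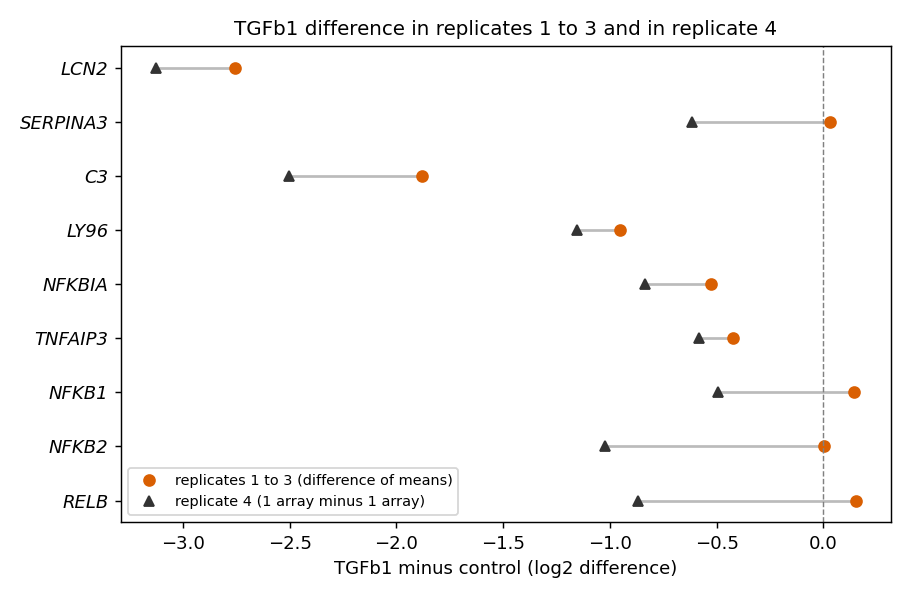
TGFb1 minus control (horizontal axis, log2 difference) for each gene, as a difference of means over replicates 1 to 3 (circles) and as 1 array minus 1 array in replicate 4 (triangles). The 9 triangles lie left of their circles, and for SERPINA3, NFKB1, NFKB2 and RELB the circles lie between 0.00 and 0.15.

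The acriflavine group was set beside the TGFb1 group to measure the change on adding the dye. SERPINA3, TNFAIP3, LY96, C3 and LCN2 rose, and NFKB1 fell. Of all genes tested 43.6% passed, 24.5% higher and 19.1% lower, beside 5 and 1 of the 9 genes. The median difference was 0.59 for the 9 genes and 0.03 for all genes. 6 of the 9 genes had no overlap between the groups, as had 44.1% of all genes.

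SERPINA3 read 12.33, 12.17 and 12.17 in acriflavine arrays, against 9.51, 9.36, 9.60 and 9.72 in TGFb1 arrays. All 3 acriflavine arrays lay more than 2 log2 units above the highest TGFb1 array. SERPINA3 rose by 2.68 ± 0.195, or 6.40-fold (adjusted p = 2.4e-07, limma), and its second probe set by 2.85. TNFAIP3 read 10.17, 10.19 and 10.02 in acriflavine arrays, against 8.46, 8.37, 8.50 and 9.11 in TGFb1 arrays. It rose by 1.52 ± 0.223, or 2.86-fold (adjusted p = 0.000106, limma), and by 1.69 without the replicates 4, with 1.47 for the second probe set. LY96 read 7.89, 7.57 and 7.60 in acriflavine arrays, all above the TGFb1 arrays at 5.62 to 6.81, and rose by 1.39 ± 0.262 (adjusted p = 0.000751, limma).

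C3 read 7.25, 7.15 and 7.01 in acriflavine arrays, against 5.60 to 6.68 in TGFb1 arrays. It rose by 1.17 ± 0.348 (adjusted p = 0.0144, limma), a call that was lost without acriflavine replicate 1 (1.11, adjusted p = 0.0516, limma). LCN2 read 7.31, 7.13 and 7.13 in acriflavine arrays, just above the TGFb1 arrays at 6.10 to 6.88. Its rise of 0.59 ± 0.219 was close to the threshold (adjusted p = 0.0406, limma). Leaving out any 1 acriflavine array, TGFb1 replicate 2 or 4, valproate replicate 1 or control replicate 3 lost the call, with differences of 0.43 to 0.62 and adjusted p from 0.0507 to 0.128 (limma), as did testing all genes without a brightness limit (adjusted p = 0.0515, limma).

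NFKB1 read 8.77, 8.80 and 8.85 in acriflavine arrays, against 10.56, 10.56, 10.44 and 10.12 in TGFb1 arrays. The acriflavine arrays lay within 0.1 of each other and more than 1 log2 unit below every other array of the study. NFKB1 fell by 1.61 ± 0.112, or 3.06-fold (adjusted p = 1.59e-07, limma). NFKBIA read 10.96, 11.06 and 10.85 in acriflavine arrays, overlapping the TGFb1 arrays at 10.61 to 11.01, with a difference of 0.17 ± 0.131 (95% interval -0.12 to 0.45, adjusted p = 0.332, limma). NFKB2 read 9.97, 9.99 and 9.94 in acriflavine arrays, inside the range of 8.01 to 10.23 of TGFb1 arrays, and its difference was 0.36 ± 0.439 (adjusted p = 0.541, limma), or -0.17 without the replicates 4 (adjusted p = 0.107, limma). RELB read 9.74, 9.93 and 9.95 in acriflavine arrays and 8.77 to 9.91 in TGFb1 arrays, a difference of 0.35 ± 0.205 (adjusted p = 0.187, limma), or 0.10 without the replicates 4.

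Valproate with TGFb1 was set against TGFb1 alone to ask the same of a histone deacetylase inhibitor. LY96, SERPINA3, C3, LCN2 and TNFAIP3 rose, and none fell. The TGFb1 arrays are shared with the acriflavine comparison. Of all genes tested 31.3% passed, 15.1% higher and 16.2% lower. The median difference was 1.38 for the 9 genes and -0.01 for all genes. 5 of the 9 genes had no overlap between the groups, as had 34.6% of all genes.

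LY96 read 8.58, 9.28 and 8.78 in valproate arrays, against 6.39, 5.62, 6.81 and 6.36 in TGFb1 arrays. It rose by 2.59 ± 0.262, or 6.01-fold (adjusted p = 9.15e-06, limma). SERPINA3 read 11.83, 12.27 and 12.16 in valproate arrays, against 9.36 to 9.72 in TGFb1 arrays, and rose by 2.54 ± 0.195, or 5.82-fold (adjusted p = 1.03e-06, limma). C3 read 7.75, 8.07 and 8.03 in valproate arrays, all above the highest TGFb1 array at 6.68, and rose by 1.99 ± 0.348, or 3.96-fold (adjusted p = 0.000681, limma). LCN2 read 8.14, 8.58 and 7.85 in valproate arrays, about 1 log2 unit or more above the TGFb1 arrays, and rose by 1.60 ± 0.219, or 3.03-fold (adjusted p = 9.48e-05, limma).

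TNFAIP3 read 10.29, 9.87 and 9.83 in valproate arrays, above TGFb1 arrays at 8.37 to 9.11, and rose by 1.38 ± 0.223, or 2.61-fold (adjusted p = 0.000361, limma). NFKBIA read 11.32, 10.82 and 11.10 in valproate arrays, which overlap both the TGFb1 and the control arrays. Its difference from TGFb1 was 0.29 ± 0.131 and did not pass (adjusted p = 0.112, limma), and without valproate replicate 2, the lowest array, it passed at 0.42 (adjusted p = 0.0390, limma). NFKB1 read 10.13, 10.27 and 10.31 in valproate arrays, a difference of -0.19 ± 0.112 (adjusted p = 0.236, limma). RELB read 9.28, 9.38 and 9.57 in valproate arrays, a difference of -0.11 ± 0.205 (adjusted p = 0.742, limma). Without TGFb1 replicate 4 both passed, NFKB1 at -0.29 (adjusted p = 0.0221, limma) and RELB at -0.36 (adjusted p = 0.0154, limma), so the count of genes that fell was then 2. NFKB2 read 9.94, 9.95 and 10.12 in valproate arrays, a difference of 0.40 ± 0.439 (adjusted p = 0.552, limma). Without the replicates 4 the NFKB2 difference was -0.14 (adjusted p = 0.214, limma).

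**Figure D3:**
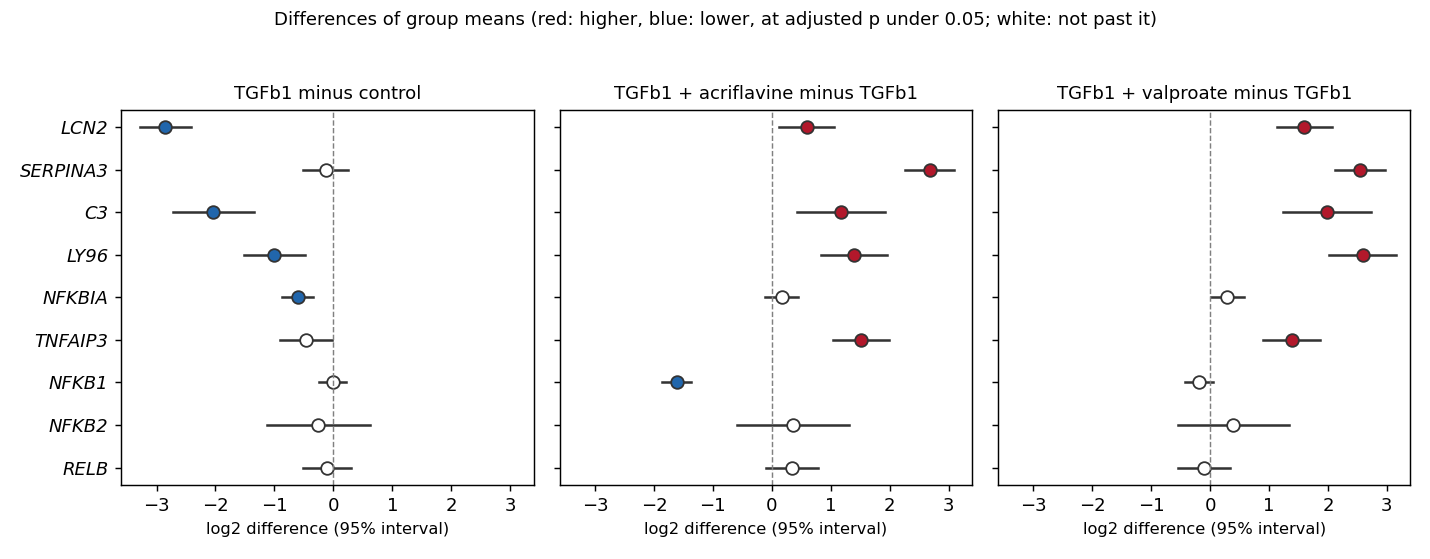
Differences of group means (horizontal axis, log2) with 95% intervals of the limma fit for the 9 genes: TGFb1 minus control (left), TGFb1 with acriflavine minus TGFb1 (middle) and TGFb1 with valproate minus TGFb1 (right). Filled points passed an adjusted p of 0.05. LCN2 is at -2.85 on the left, SERPINA3 at 2.68 and 2.54 in the other panels, and NFKB1 at -1.61 in the middle panel.

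Both inhibitor groups were also set directly against each other, which tests whether their changes from the shared TGFb1 arrays differed. NFKB1, LY96 and LCN2 were lower with acriflavine than with valproate, and none of the 9 genes was higher. Of all genes tested, 23.3% were lower and 28.3% higher with acriflavine, so 3 of 9 and 0 of 9 are to be read against a comparison in which about 1 gene in 2 differed (51.5%). NFKB1 differed by -1.43 ± 0.119 (adjusted p = 4.78e-07, limma), LY96 by -1.19 ± 0.280 (adjusted p = 0.00277, limma) and LCN2 was 2.01-fold lower (SE 0.234 on the log2 scale, adjusted p = 0.00261, limma). For each of these 3 genes every acriflavine array lay below every valproate array. The groups did not overlap for 5 of the 9 genes, nor for 72.3% of all genes, so a lack of overlap is common in this comparison.

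SERPINA3 and TNFAIP3 did not pass. SERPINA3 averaged 12.22 ± 0.0910 with acriflavine and 12.09 ± 0.231 with valproate (SD, n = 3 each), with a 95% interval of the difference of -0.31 to 0.58. TNFAIP3 averaged 10.13 ± 0.0902 with acriflavine and 9.99 ± 0.255 with valproate (SD, n = 3 each), with an interval of -0.38 to 0.65. NFKBIA differed by -0.13 (interval -0.43 to 0.18) and NFKB2 by -0.03 (interval -1.04 to 0.97).

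C3 and RELB depended on the arrays in the fit. C3 averaged 7.14 ± 0.116 with acriflavine and 7.95 ± 0.175 with valproate (SD, n = 3 each), without overlap, and the difference of -0.82 ± 0.372 did not pass (adjusted p = 0.0820, limma). RELB averaged 9.87 ± 0.117 with acriflavine and 9.41 ± 0.147 with valproate (SD, n = 3 each), without overlap, and the difference of 0.46 ± 0.219 did not pass (adjusted p = 0.0942, limma). The SE is shared by all groups and includes the replicates 4. Without these both passed at the same differences (adjusted p = 2.21e-05 for C3 and 0.00172 for RELB, limma). Leaving out TGFb1 replicate 4 alone gave 0.0423 and 0.00190, and C3 also passed without control replicate 4 (adjusted p = 0.00759, limma).

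Against control, which shows the level that was reached with TGFb1 and inhibitor together, SERPINA3 and TNFAIP3 were higher in both inhibitor groups and LCN2 was lower in both. With acriflavine 2 of 9 genes were higher and 3 lower, against 26.1% and 21.6% of all genes (47.7% in all). With valproate 3 were higher and 1 lower, against 16.9% and 19.8% of all genes (36.7% in all). SERPINA3 was above control by 2.55 ± 0.195 with acriflavine (adjusted p = 4.01e-07, limma) and by 2.41 ± 0.195 with valproate (adjusted p = 6.53e-07, limma). TNFAIP3 was above it by 1.06 ± 0.223 with acriflavine (adjusted p = 0.00152, limma) and by 0.92 ± 0.223 with valproate (adjusted p = 0.00513, limma). LCN2 differed from control by -2.25 ± 0.219 with acriflavine (adjusted p = 3.06e-06, limma) and by -1.25 ± 0.219 with valproate (adjusted p = 0.000525, limma).

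LY96 was above control with valproate, by 1.58 ± 0.262 (adjusted p = 0.000345, limma), and at 0.39 ± 0.262 with acriflavine (adjusted p = 0.243, limma). NFKB1 was below control with acriflavine, by -1.63 ± 0.112 (adjusted p = 2e-07, limma), and at -0.20 ± 0.112 with valproate (adjusted p = 0.183, limma). NFKBIA was below control with acriflavine, by -0.44 ± 0.131 (adjusted p = 0.0142, limma), and lost this call without acriflavine replicate 3 (-0.38, adjusted p = 0.0612, limma). With valproate it was at -0.31 ± 0.131 (adjusted p = 0.0807, limma) and passed without valproate replicate 1 (-0.43, adjusted p = 0.0332, limma).

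C3 against control also depended on the arrays in the fit. Control replicate 4 read 9.19, against 7.46 to 7.72 in the other 3 control arrays. Leaving out that array alone changed neither the acriflavine nor the valproate call. The difference with acriflavine was -0.87 ± 0.348 and did not pass (adjusted p = 0.0546, limma), while without the replicates 4 it was -0.47 and passed (adjusted p = 0.00237, limma). It also passed without TGFb1 replicate 4 (-0.87), control replicate 2 (-1.05) or control replicate 3 (-0.99), with adjusted p of 0.0251, 0.0326 and 0.0492 (limma). With valproate it was -0.05 ± 0.348 (adjusted p = 0.929, limma), and without the replicates 4 it turned to 0.35 and passed (adjusted p = 0.0182, limma). NFKB2 was at 0.11 and 0.14 with acriflavine and valproate against control, neither of which passed. Without the replicates 4 these turned to -0.17 and -0.13, and again neither passed. RELB was at 0.25 and -0.21, and the acriflavine value passed without TGFb1 replicate 4 (adjusted p = 0.0467, limma).

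**Figure D4:**
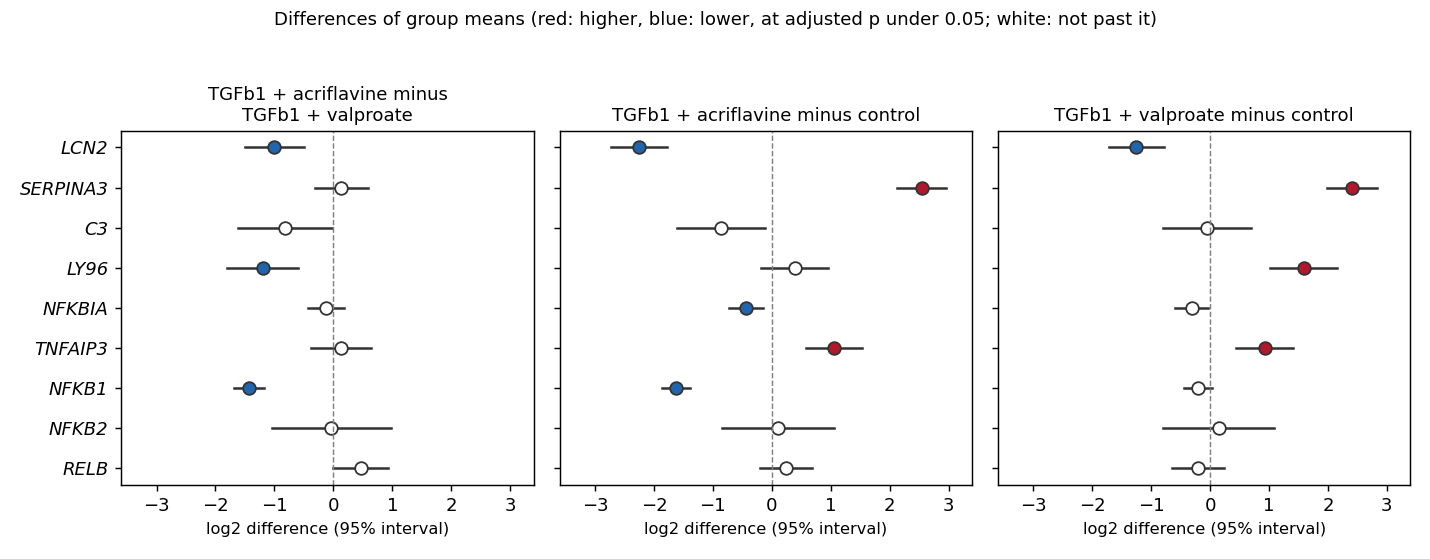
Differences of group means (horizontal axis, log2) with 95% intervals of the limma fit: TGFb1 with acriflavine minus TGFb1 with valproate (left), and each inhibitor group minus control (middle and right). Filled points passed an adjusted p of 0.05. SERPINA3 is at 2.55 and 2.41 against control and at 0.14 between the inhibitors, and LCN2 is left of 0 in all 3 panels.

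The rest of the pathway was described with lists of related genes. Of 10 other subunits, inhibitors and kinase components, all tested, 4 rose and 1 fell with acriflavine against TGFb1, beside 24.5% and 19.1% of all genes, with a median of 0.41. NFKBIE, the inhibitor IkB-epsilon, rose by 1.11 ± 0.101, NFKBIZ, the nuclear regulator IkB-zeta, by 0.87 ± 0.217 and NFKBID, another nuclear IkB protein, by 0.81 ± 0.102. With valproate 2 rose and 1 fell, beside 15.1% and 16.2% of all genes, with a median of -0.04, and NFKBIZ was up by 1.19 ± 0.217, NFKBIE by 0.40 ± 0.101 and BCL3, a nuclear partner of p50 and p52, down by -0.65 ± 0.224. With TGFb1 against control NFKBIE alone passed, at -0.30 ± 0.0933, beside 18.4% of all genes. Between the inhibitors 3 of the 10 were higher and 1 lower with acriflavine, beside 28.3% and 23.3% of all genes. NFKBID (0.80 ± 0.110), NFKBIE (0.71 ± 0.108) and IKBKB, a kinase that marks the inhibitors for destruction (0.37 ± 0.140), were higher. REL, the c-Rel subunit (-0.66 ± 0.162), was lower. As background in all genes, the medians were 0.03, -0.01 and 0.00 for acriflavine and valproate against TGFb1 and TGFb1 against control.

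Of 28 adaptors, kinases and ubiquitin enzymes upstream of NF-kB, 25 were tested. With acriflavine 2 rose and 5 fell, with a median of -0.06. Of all genes 24.5% rose and 19.1% fell, so the 5 that fell are near the background share and the 2 that rose are below it. MYD88, the adaptor of Toll-like and interleukin-1 receptors, rose by 0.76 ± 0.115, CYLD, a deubiquitinase that restrains the pathway, rose by 0.75 ± 0.164, and TRADD, an adaptor of the TNF receptor, fell by 0.81 ± 0.137. With valproate 5 rose and 4 fell, beside 15.1% and 16.2% of all genes, with a median of -0.03. The largest changes were in TAB3, an adaptor of the kinase TAK1 (0.80 ± 0.160), IRAK3, a brake on Toll-like receptor signals (0.72 ± 0.133), and RIPK2, the kinase of NOD receptors (0.56 ± 0.108). IRAK3 averaged 7.55 in valproate, 6.21 in acriflavine, 6.82 in TGFb1 and 7.12 in control arrays. Its acriflavine and TGFb1 means lay below the brightness limit. With TGFb1 against control 2 rose, beside 8.39% of all genes, and 1 fell, beside 9.97%. TNIP2, a partner of A20, rose by 0.41 ± 0.111, SHARPIN, a part of the linear ubiquitin ligase, rose by 0.30 ± 0.0971, and MAP3K14, the kinase of the non-canonical branch, fell by 0.43 ± 0.122.

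12 of 28 receptors and ligands were tested. With acriflavine 6 rose and 1 fell, beside 24.5% and 19.1% of all genes. CD40, a TNF-family receptor of the non-canonical branch, rose by 1.23 ± 0.238, TNFRSF21, death receptor 6, by 1.24 ± 0.315, and IL1R1, the interleukin-1 receptor, fell by 1.76 ± 0.193 to 6.80, against 8.56 in TGFb1 arrays. With valproate 2 rose and none fell, IL1RAP, the partner chain of IL1R1 (0.84 ± 0.0979), and TNFSF9, the ligand 4-1BBL (0.40 ± 0.0923), beside 15.1% of all genes. With TGFb1 against control 2 rose and 3 fell, beside 8.39% and 9.97% of all genes. TNFRSF21 fell by 1.08 ± 0.291, TNFRSF1B, TNF receptor 2, by 1.00 ± 0.131 and LTB, lymphotoxin beta, by 0.65 ± 0.173. TNFRSF12A, the receptor of TWEAK, rose by 0.48 ± 0.0864 and TNFSF9 by 0.43 ± 0.0855. TLR4 and CD14, the partners of LY96 in endotoxin sensing, were looked up after the LY96 values had been seen. Both lay below the brightness limit, with group means of 5.56 to 5.75 for TLR4 and 4.53 to 5.22 for CD14, and have no test.

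Of 20 NF-kB target genes other than chemokines, 13 were tested. With acriflavine 6 rose and 1 fell, beside 24.5% and 19.1% of all genes, with a median of 0.40, and IER5 (1.68 ± 0.103), BCL2A1, an anti-apoptotic BCL2 relative (1.37 ± 0.402), and ICAM1, a leukocyte adhesion receptor (1.30 ± 0.161), rose most. With valproate 5 rose, beside 15.1% of all genes, and none fell, with a median of 0.38, led by IL32, a cytokine (1.69 ± 0.393), ICAM1 (1.49 ± 0.161) and ZC3H12A, an RNase that degrades cytokine mRNAs (0.72 ± 0.0915). With TGFb1 against control 3 rose and 5 fell, beside 8.39% and 9.97% of all genes. TNFAIP2 fell by 1.00 ± 0.114, with BCL2A1 at -1.28 ± 0.372 and GADD45B, a stress sensor, at 0.86 ± 0.227. Between the inhibitors 3 of the 13 were higher and 3 lower with acriflavine, beside 28.3% and 23.3% of all genes. IER5 (1.69 ± 0.110) was at one end and TNFAIP8 (-0.67 ± 0.203) at the other.

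Of 27 complement and acute-phase genes only 7 were bright enough to be tested. With TGFb1 against control 3 fell, beside 9.97% of all genes, and none rose: PTX3, the soluble pattern receptor pentraxin 3 (-1.73 ± 0.235), CFB, factor B of the alternative complement pathway (-1.42 ± 0.309), and CFD, the protease that cleaves factor B (-0.73 ± 0.112). With acriflavine against TGFb1 2 rose and 2 fell, beside 24.5% and 19.1% of all genes. PTX3 rose by 1.39 ± 0.254 and CFB by 1.16 ± 0.334, while CFD fell by 0.40 ± 0.121. With valproate 2 rose, beside 15.1% of all genes, and none fell. CFD rose by 1.88 ± 0.121 and PTX3 by 1.41 ± 0.254, and CFB was at 0.28 ± 0.334 (adjusted p = 0.588, limma). Between the inhibitors 3 of the 7 were lower with acriflavine, beside 23.3% of all genes, and none was higher, beside 28.3%. CFD differed by -2.28 ± 0.129. It averaged 8.38 in valproate, 6.10 in acriflavine, 6.50 in TGFb1 and 7.23 in control arrays. The acriflavine and TGFb1 means lay below the brightness limit, and CFD was tested because its mean over all arrays, the high valproate arrays included, lay above it. Of 22 antimicrobial and epithelial defence genes 5 were tested. With valproate 1 rose and 1 fell, beside 15.1% and 16.2% of all genes. These were WFDC2, a protease inhibitor of epithelia, up by 0.86 ± 0.0976, and MUC1, a surface mucin, at -0.31 ± 0.0933. With acriflavine MUC1 alone passed, rising by 0.42 ± 0.0933, beside 43.6% of all genes that passed. With TGFb1 against control none of the 5 passed by limma, beside 18.4% of all genes.

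The tested genes nearest to each of the 9 were found by the root mean square distance between values centred on each gene's mean, over the 14 arrays. For SERPINA3, which itself varied by 1.28 on this measure, they were MMP7, matrilysin (distance 0.298), GLRX, a glutaredoxin (0.431), and the chemokine CXCL8 (0.446). MMP7 averaged 10.50 in valproate, 10.76 in acriflavine, 8.45 in TGFb1 and 7.93 in control arrays. For C3, which varied by 0.967, BST2, the antiviral protein tetherin (0.384), PTX3 (0.385) and MANSC1 (0.426) were nearest. For LCN2, which varied by 1.17, they were TXNIP, the thioredoxin-interacting protein (0.448), its relative ARRDC4 (0.458) and MYO5C, an unconventional myosin (0.488). For NFKB1, which varied by 0.660, AARS1, the alanyl-tRNA synthetase, was nearest at 0.10, with means of 10.54 in valproate, 9.06 in acriflavine, 10.72 in TGFb1 and 10.79 in control arrays. B3GALT6 (0.143) and DEAF1 (0.168) followed. For NFKB2, which varied by 0.583 mostly through the replicates 4, FOSL1, an AP-1 subunit, was nearest at 0.178, before BCL2L1, which encodes BCL-XL (0.202), and CSRP1 (0.238). LY96, which varied by 0.974, had LY75, an endocytic receptor (0.385), PPP1R1C (0.394) and the collagen COL12A1 (0.460). TNFAIP3, which varied by 0.689, had PPP4R4 (0.217), FAM117A (0.242) and DKK3 (0.247). NFKBIA, which varied by only 0.279, had CYB5B (0.112), PPFIBP2 (0.130) and IFITM2 (0.149). RELB, which varied by 0.300, had BORCS8 (0.136), PLEKHJ1 (0.149) and TXNRD2 (0.151).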

How the data were processed

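PANC-1 RNA (200 ng a sample, per the labels) was read on 14 arrays. The authors deposited log2 intensities, computed by RMA in the R package affy 1.44.0, per the submitters' processing notes. Which arrays were normalised together is not given in the sources used here. Of 49193 probe sets 44898 named 1 gene, 1825 several and 2470 none in the annotation used. 13 belonged to the 9 measured genes. For each of 18129 genes the probe set with the highest mean was kept, and the dimmest 40% (7252 genes) were left out. Group means were fitted with limma 3.58.1 in R 4.3.3 over all arrays without covariates, with 6 comparisons and Benjamini-Hochberg adjustment. The genes, lists and tests were chosen with earlier results of these data known. All 9 genes were named whatever their result, from each list of NF-kB and defence genes, for each comparison with TGFb1, up to 3 passing genes with the largest change, and the 3 nearest genes. TLR4, CD14, PTPRC, ALB, LAPTM5, CD68, TYROBP, ESAM, TNFRSF12A, TNFSF9 with TGFb1, CFB with valproate and the list genes named between the inhibitors were chosen after their values were seen.

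Whether replicate numbers mark pairs was looked at by a rule, that every correlation of same-numbered deviations exceed 0.1. For TGFb1 and control it was 0.387, 0.359, 0.542 and 0.705, but with replicates 1 to 3 alone -0.258, 0.151 and 0.589. The other comparisons did not meet the rule. The main fit was unpaired in every comparison, TGFb1 against control included, and the replicate block was run as an alternative. Figures used matplotlib 3.10.9 in Python 3.11.15. The arrays' hybridisation dates were not used here.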

Additional observations from a re-analysis of the deposited data

Results flagged for a closer look

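3 of 18 groups of 4 arrays held an array far from the other 3, by a gap test that chance meets in about 1 of 20 groups of normal values. The same TGFb1 and control arrays served every gene. The 18 groups are therefore not independent, and the count of 3 cannot be set against that rate. LCN2 in control replicate 2 read 8.95, against 9.56 to 9.63 in the other control arrays. C3 in control replicate 4 read 9.19, against 7.46 to 7.72. NFKB2 in TGFb1 replicate 4 read 8.01, against 9.98 to 10.23, and NFKB2 in control replicate 4, at 9.03 against 10.04 to 10.27, came close to the limit of the test. How the replicates 4 were prepared is not given in the sources used here, and its part in these values was not tested.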

How the results depend on the processing

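Each of the 54 differences was recomputed under 29 alternatives. Of 1548 values 1498 kept their side of the threshold, 31 passed where they had not, 18 no longer passed and 1 reversed. Of the 1498, 33 values in 11 differences changed sign without passing in either setting. The reversal was C3 with valproate against control, at 0.35 without the replicates 4. Leaving out the dimmest 60% of genes removed the dim genes from the test, and the counts were then 1 lower with TGFb1, 2 higher with acriflavine and 2 higher with valproate against TGFb1, 0 lower with valproate against control and 1 lower with acriflavine against valproate. At an adjusted p of 0.01, 3 genes rose with acriflavine. Without the replicates 4, 2 genes fell with valproate against TGFb1. Between the inhibitors 1 gene (RELB) was higher with acriflavine without the replicates 4, with the 2 groups fitted alone, with the replicate block and with the replicates 4 as a batch term, the last chosen after seeing the data. Leaving out 1 array at a time gave 3 to 5 genes higher with acriflavine and 0 to 2 lower with valproate against TGFb1, 1 to 2 lower with valproate against control, and 0 to 1 higher with acriflavine against valproate. The replicate block also passed NFKBIA with valproate against TGFb1 (0.34, adjusted p = 0.0479), C3 with acriflavine against control (-0.55, adjusted p = 0.00593) and C3 between the inhibitors (-0.82, adjusted p = 0.000445), besides TNFAIP3 with TGFb1 (-0.46, adjusted p = 0.00915), by limma, and changed no other call. Rescaling the arrays changed no call. Array signal over background was not used here, so how far the dim values of C3, LCN2 and LY96 in TGFb1 arrays compress their differences was not tested.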
